A study of Mus musculus with 18 samples.

Results

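Slc3a2, Slc7a5, Slc7a3, Slc1a4 and Slc38a2 encode plasma membrane amino acid transporters whose genes are known targets of the cellular amino acid response. They were followed here in the brains of mice that lack Aldh5a1 (Aldh5a1-/-, called KO) and of wild-type mice (WT). Probe sets of the array were taken where the annotation gave 1 of these 5 gene symbols and no other, which gave 8 of the 12488 probe sets, 4 for Slc38a2 and 1 for each of the other genes, and 5 of the 8252 genes named that way. The genes were proposed with the KO minus WT values of these same arrays known, so those values are described below and no p-value is given for them. The study hybridised hippocampus, cerebellum and cortex of 3 KO and 3 WT mice to Affymetrix mouse arrays, 1 array per animal and region, 18 in all. The KO animals are 3363, 3389 and 3403, and the WT animals are 3405, 3406 and 3396. The labels name no age, sex, strain background or treatment for either genotype. Aldh5a1 encodes succinate semialdehyde dehydrogenase, a mitochondrial enzyme of GABA breakdown.

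Cells short of amino acids, or with unfolded protein or mitochondrial stress, phosphorylate the initiation factor eIF2alpha, which lowers translation in general and favours translation of the transcription factor ATF4. ATF4 binds composite C/EBP-ATF elements and raises genes for amino acid synthesis, tRNA charging and amino acid uptake. Slc3a2 encodes the CD98 heavy chain, a glycoprotein with no transport pore of its own, which brings light chains of the Slc7 family to the cell surface. Slc7a5 encodes the light chain LAT1, an exchanger of large neutral amino acids such as leucine, and in brain it is abundant in capillary endothelium. Slc7a3 encodes CAT3, a carrier of arginine and lysine that is found in neurons. Slc1a4 encodes ASCT1, an exchanger of alanine, serine and cysteine, and Slc38a2 encodes SNAT2, a sodium-coupled importer of small neutral amino acids.

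Values are scaled intensity, called signal, and differences are on the log2 scale, where 1 is a doubling. Of the 8 probe sets, 5 passed the filter on low values, 1 for each gene. The other 3 Slc38a2 probe sets read between 0.0340 and 17.3 on the 18 arrays, against a floor of 9.46, and are not used. Slc7a3 was dim: it stood above the filter level on 6 KO arrays, all those of hippocampus and cortex, and on 2 WT hippocampus arrays. It therefore entered largely through the arrays on which it was high, and the share of the 5 genes that differ is not evidence about them. Levels of different genes cannot be compared on an array, so all comparisons are within a gene. Median signal per array ran from 53.5 to 64.8. All 18 arrays lay nearest to others of the region in their title, while the source label calls every sample hippocampus. Gabra6, a receptor subunit of cerebellar granule cells, read 2316 to 2618 on KO and 2692 to 2881 on WT cerebellum arrays, and at most 13.3 on any other array. Tbr1, a factor of forebrain excitatory neurons, read at least 362 on the KO and 382 on the WT arrays of hippocampus and cortex, and at most 9.71 in cerebellum.

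Slc3a2 was higher in KO hippocampus and KO cortex, and its KO and WT values overlapped in cerebellum. In hippocampus its signal was 1268, 1379 and 1637 in KO animals 3363, 3389 and 3403, against 830, 878 and 925 in WT animals 3405, 3406 and 3396. The lowest KO hippocampus thus stood well above the highest WT one. In cortex the KO animals read 1008, 1157 and 1113, against 799, 767 and 828 in WT. Again the groups did not overlap. In cerebellum they read 929, 835 and 1135 in KO, against 785, 904 and 919 in WT, and the KO value of 3389 lay inside the WT range. The cerebellar difference was small and moved with single animals, to 0.24 without 3389, 0.02 without 3403 and 0.07 without 3405. The log2 difference was 0.70 ± 0.11 (SE, limma) in hippocampus, 0.14 ± 0.11 in cerebellum and 0.45 ± 0.11 in cortex, and in hippocampus this is 1.62-fold. From highest to lowest mean the groups ran KO hippocampus, KO cortex, KO cerebellum, WT hippocampus, WT cerebellum, WT cortex. Only the first was separated from its neighbour by more than the spread of the arrays.

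Slc7a5, the light chain that pairs with Slc3a2, was also higher in KO hippocampus and cortex, but not in KO cerebellum. Hippocampus read 583, 917 and 929 in KO animals 3363, 3389 and 3403, against 509, 528 and 544 in WT animals 3405, 3406 and 3396. The groups did not overlap, although the KO value of 3363 lay close to the WT values. Without that animal the log2 difference was 0.81, against 0.59 ± 0.15 with it. Cortex read 469, 619 and 511 in KO, against 370, 330 and 369 in WT, a log2 difference of 0.57 ± 0.15. Every KO cortex array was above every WT one. In cerebellum the KO arrays read 500, 533 and 514, against 501, 694 and 611 in WT, a log2 difference of -0.21 ± 0.15. There the groups overlapped and the KO arrays lay at the low end of the WT range, with a difference of -0.34 without WT animal 3405 and -0.10 without 3406. In the order of the 6 groups, KO hippocampus had the highest mean and WT cortex the lowest, and only WT cortex was apart from its neighbour, since the other 5 overlapped in a chain.

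**Figure D1:**
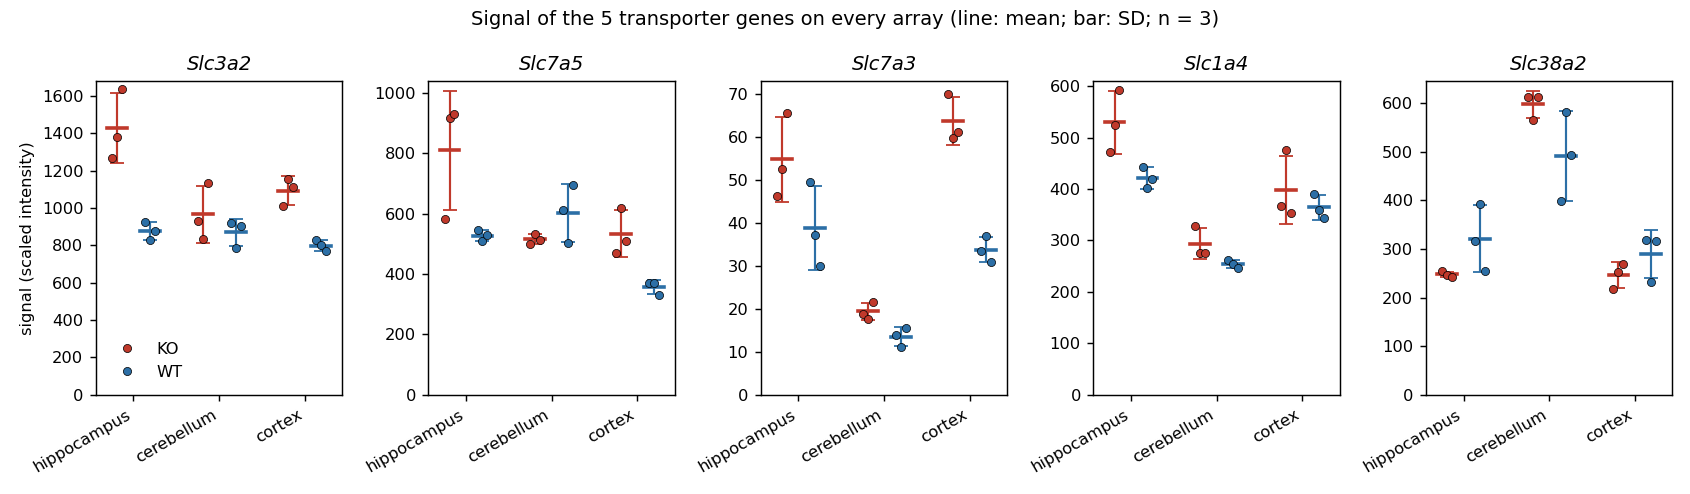
Signal (scaled intensity, linear axis from 0) of the 5 transporter genes on each array, by region, KO left of WT, with the mean as a line and the SD as a bar (n = 3 animals). KO and WT points lie apart for Slc3a2 and Slc7a5 in hippocampus and cortex, and Slc38a2 is highest in cerebellum in both genotypes.

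Slc7a3, the arginine and lysine carrier, had its widest gap in cortex. Its cortex signal was 70.1, 59.9 and 61.2 in KO animals 3363, 3389 and 3403, against 36.9, 31.0 and 33.4 in WT animals 3405, 3406 and 3396. The lowest KO value was far above the highest WT value, and the log2 difference was 0.92 ± 0.24, or 1.89-fold. Cerebellum read 18.9, 17.6 and 21.6 in KO, against 11.1, 15.5 and 13.9 in WT, again without overlap (0.53 ± 0.24), but on arrays where the probe set was under the filter level. Hippocampus read 46.2, 52.6 and 65.6 in KO, against 37.1, 30.1 and 49.5 in WT (0.51 ± 0.24), and the WT value of 3396 exceeded the lowest KO value. With 16 added to each signal in place of the floor, the differences in cortex and cerebellum shrank to 0.68 and 0.26.

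Slc1a4, the serine and alanine exchanger, had the smallest difference of these 4 genes in hippocampus and cortex. Hippocampus read 471, 525 and 593 in KO animals 3363, 3389 and 3403, against 402, 420 and 442 in WT animals 3405, 3406 and 3396, a log2 difference of 0.32 ± 0.12. Cerebellum read 328, 276 and 276 in KO, against 254, 247 and 261 in WT, a log2 difference of 0.20 ± 0.12. In neither region did the groups overlap, though in cerebellum only the array of 3363 stood well clear of the WT range, and without that animal the difference was 0.12. In cortex the KO values of 366, 475 and 354 overlapped the WT values of 359, 343 and 391 (0.12 ± 0.12). The cortex difference was -0.02 without animal 3389, the highest there, 0.20 without 3403 and 0.08 without 3406.

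The promoter of Slc1a4 was searched for the core of the C/EBP-ATF element, the letters TGATGNAA, on both strands, and it is the only one of the members' promoters found here that holds them. RefSeq promoters (GRCm38.p6, 250 bases before to 50 after the annotated start) were found for 3 of the 5 genes, Slc3a2, Slc1a4 and Slc38a2. Slc1a4, at chr11:20332664-20332963 on the minus strand, is shown because it holds a match, in capitals, which reads TGATGCAA on the opposite strand and runs from base 247 to base 254, across the annotated start. Slc3a2, at chr19:8713848-8714147 on the minus strand, is shown because it had the widest hippocampal gap, and it holds 0 matches in this window, as does Slc38a2.
Slc1a4: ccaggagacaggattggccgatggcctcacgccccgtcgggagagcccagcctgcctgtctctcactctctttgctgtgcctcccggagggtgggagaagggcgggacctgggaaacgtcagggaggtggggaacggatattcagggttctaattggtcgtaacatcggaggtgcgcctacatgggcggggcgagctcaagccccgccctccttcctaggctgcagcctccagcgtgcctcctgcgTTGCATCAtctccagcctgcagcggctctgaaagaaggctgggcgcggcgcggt
Slc3a2: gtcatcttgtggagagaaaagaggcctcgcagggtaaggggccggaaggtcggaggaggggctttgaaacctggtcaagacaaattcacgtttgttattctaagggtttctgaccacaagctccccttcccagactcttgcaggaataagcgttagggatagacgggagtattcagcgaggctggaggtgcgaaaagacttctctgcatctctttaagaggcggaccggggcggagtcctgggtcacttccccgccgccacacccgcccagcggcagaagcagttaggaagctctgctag
Of all 32851 promoters of that length, 3.97% hold the letters, and by gene 4.51% of 27025 do. Among the other amino acid response genes described below, 13 of 34 with a promoter hold them (38.2%), and among the other amino acid transporters 2 of 34 (5.88%), Slc7a7 and Slc7a11. Many of the response genes are known through this element, so the share describes the list and not these arrays. A match of letters is not a binding site.

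Slc38a2 had KO minus WT values below 0 in hippocampus and cortex and above 0 in cerebellum. Hippocampus read 254, 246 and 243 in KO animals 3363, 3389 and 3403, against 393, 254 and 317 in WT animals 3405, 3406 and 3396, a log2 difference of -0.36 ± 0.16. The groups were apart by less than 1 unit of signal, because the highest KO value, 253.7, all but met the lowest WT value, 254.4. Without WT animal 3405, the highest, the difference was -0.20. Cortex read 217, 253 and 270 in KO, against 233, 317 and 320 in WT, and overlapped (-0.22 ± 0.16), with -0.14 without 3363, -0.38 without 3405 and -0.15 without 3396. Cerebellum read 614, 565 and 614 in KO, against 583, 493 and 398 in WT, and overlapped as well (0.30 ± 0.16, or 0.155 without 3396). The WT arrays spread widely, with an SD of 69.3 in hippocampus and 92.2 in cerebellum, against 5.51 and 27.9 on the KO arrays.

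Counted together, 3 of the 5 genes lay wholly higher in KO hippocampus, 3 in KO cortex and 2 in KO cerebellum, while 1 lay wholly lower, Slc38a2 in KO hippocampus. Over all 8382 kept probe sets, 10.3% lay wholly higher in KO hippocampus, 7.05% in KO cortex and 7.48% in KO cerebellum, and 6.93% lay wholly lower in KO hippocampus, 7.13% in KO cortex and 7.74% in KO cerebellum. Slc3a2 and Slc7a5 lay wholly higher in both hippocampus and cortex, as 1.06% of all did. The limma fit over all kept probe sets called 1 of the 5 higher in KO hippocampus, Slc3a2, where 0.0358% of all were called higher. It called 0 of 5 in KO cortex and 0 of 5 in KO cerebellum, where 0.0597% and 0% of all were called higher. Called lower in KO were 0.0835% of all in hippocampus, 0.227% in cortex and 0.0358% in cerebellum. At an unadjusted p under 0.05 in either direction these shares were 8.41% of all in hippocampus, 10.2% in cortex and 12.1% in cerebellum. The call for Slc3a2 was lost without WT animal 3405 or 3406, after median scaling, with no intensity trend and on the 6 hippocampus arrays alone, and without KO animal 3363 Slc7a5 was called as well. Since the genes were picked on this contrast, nothing is read from these counts.

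The median log2 difference of the 5 genes was 0.51 in hippocampus, 0.20 in cerebellum and 0.45 in cortex, beside medians of 0.02, 0.03 and 0.00 over all kept probe sets. In hippocampus the median is the value of the dim Slc7a3. The genes were picked on this contrast, so nothing is read from these medians or from the animal means below. Averaged over the regions, each animal has 1 geometric mean per gene. For Slc3a2 these were 1059, 1101 and 1274 in KO, against 805, 848 and 890 in WT, and for Slc7a5 515, 671 and 625 in KO, against 455, 495 and 497 in WT. Slc7a3 had 39.4, 38.2 and 44.3 in KO, against 24.8, 24.4 and 28.5 in WT, and Slc1a4 had 384, 410 and 387 in KO, against 332, 329 and 356 in WT. All 4 genes had every KO animal above every WT animal, as 8.59% of all kept probe sets did, while 7.02% of all had every KO animal below. Slc38a2 had 323, 327 and 343 in KO, against 376, 342 and 343 in WT, which overlap. The log2 differences of the animal means were 0.43 ± 0.08 for Slc3a2, 0.32 ± 0.10 for Slc7a5, 0.65 ± 0.17 for Slc7a3, 0.21 ± 0.07 for Slc1a4 and -0.09 ± 0.07 for Slc38a2 (SE, limma, n = 3 animals each). Without 3405 the last was -0.0483.

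**Figure D2:**
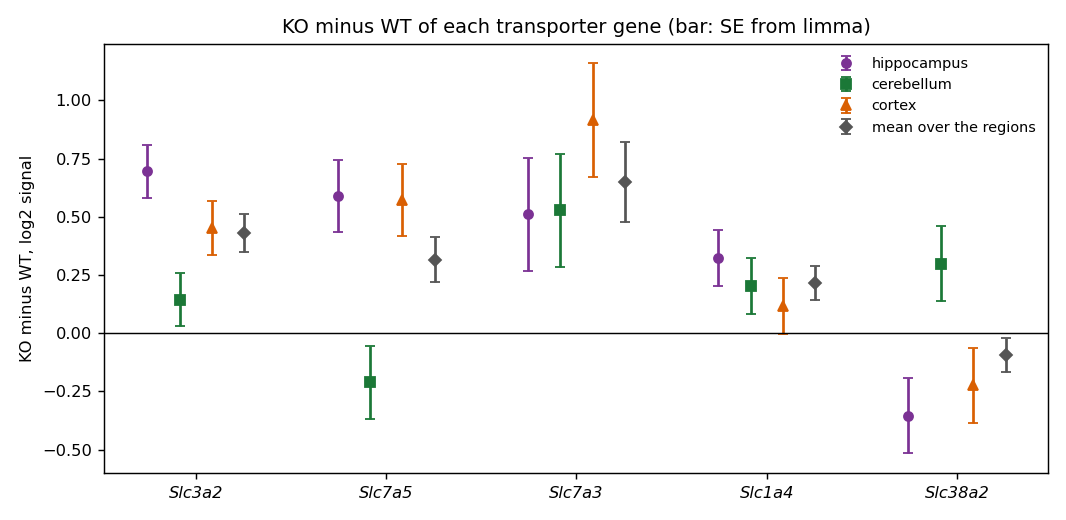
KO minus WT on the log2 scale for each gene in hippocampus, cerebellum and cortex and for the mean over the regions, with limma's SE as a bar (3 KO and 3 WT animals). Slc7a5 lies above 0 in hippocampus and cortex and at -0.21 in cerebellum, and Slc38a2 shows the opposite order.

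The regions of WT brain differed in Slc1a4, Slc38a2 and Slc7a5, and this comparison did not choose the genes, although the same WT arrays are the reference of the one that did. Slc7a3 gets no test here, because it passed the filter only through arrays of hippocampus and cortex. It read 13.5 ± 2.21 in WT cerebellum, 33.8 ± 2.97 in WT cortex and 38.9 ± 9.82 in WT hippocampus (SD, n = 3). Cerebellum minus cortex was -1.33 ± 0.24 on the log2 scale and cerebellum minus hippocampus -1.51 ± 0.24, and no WT cerebellum array reached a WT array of the other regions. Slc1a4 was lower in cerebellum, at 254 ± 7.10, against 364 ± 24.2 in cortex and 421 ± 20.5 in hippocampus. Its log2 differences were -0.52 ± 0.12 against cortex (limma adjusted p = 0.00236) and -0.73 ± 0.12 against hippocampus (limma adjusted p = 0.000121).

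Slc38a2 was higher in WT cerebellum than in both other regions, and Slc7a5 was higher there than in WT cortex. Slc38a2 read 491 ± 92.2 in WT cerebellum, 290 ± 49.6 in cortex and 322 ± 69.3 in hippocampus. It was higher in cerebellum by 0.76 ± 0.16 against cortex (limma adjusted p = 0.00114, and a value of 0.48 without WT animal 3405) and by 0.62 ± 0.16 against hippocampus (limma adjusted p = 0.00705), the second of which did not pass without WT animal 3406 (limma adjusted p = 0.112). Slc7a5 read 602 ± 96.7 in WT cerebellum, 356 ± 23.1 in cortex and 527 ± 17.7 in hippocampus. Cerebellum exceeded cortex by 0.75 ± 0.15 (limma adjusted p = 0.000943), while cerebellum minus hippocampus, at 0.18 ± 0.15, did not pass (limma adjusted p = 0.419). Hippocampus exceeded cortex by 0.57 ± 0.15 (limma adjusted p = 0.0215), but this did not pass once any 1 of the WT animals was left out (limma adjusted p = 0.0642 without 3405, 0.146 without 3406 and 0.112 without 3396). Slc3a2 did not pass between any pair of WT regions, with log2 differences from -0.02 to 0.14, each ± 0.11. Of the 4 genes other than Slc7a3, 2 were called higher and 1 lower in WT cerebellum than in WT cortex, where 17.8% and 23% of all kept probe sets were. Against WT hippocampus, 1 was called higher and 1 lower in cerebellum, beside 13.9% and 15.2% of all, and 1 was called higher in hippocampus than in cortex, beside 6.35% called higher and 6.18% called lower. Median scaling moved the median of all probe sets by 0.17 in cerebellum minus cortex and by 0.11 in cerebellum minus hippocampus, and turned the split of calls to 2189 higher and 1242 lower in the first, against 1493 and 1928. Slc1a4, Slc38a2 and Slc7a5 kept their directions and calls there.

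In KO brain the region differences are given without a test, since the KO arrays served to choose the genes. The WT arrays entered that choice too, as its reference, so the WT p-values above are not free of it. Slc7a3 and Slc1a4 were low in KO cerebellum as in WT, by -1.72 ± 0.24 and -0.43 ± 0.12 against cortex. Slc38a2 was 1.28 ± 0.16 higher in KO cerebellum than in KO cortex, beside the 0.76 of WT. For Slc7a5 cerebellum minus cortex was -0.04 ± 0.15 in KO, beside 0.75 in WT, so the 2 regions had nearly the same level in KO. For Slc3a2 cerebellum minus hippocampus was -0.57 ± 0.11 in KO, beside -0.02 in WT.

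**Figure D3:**
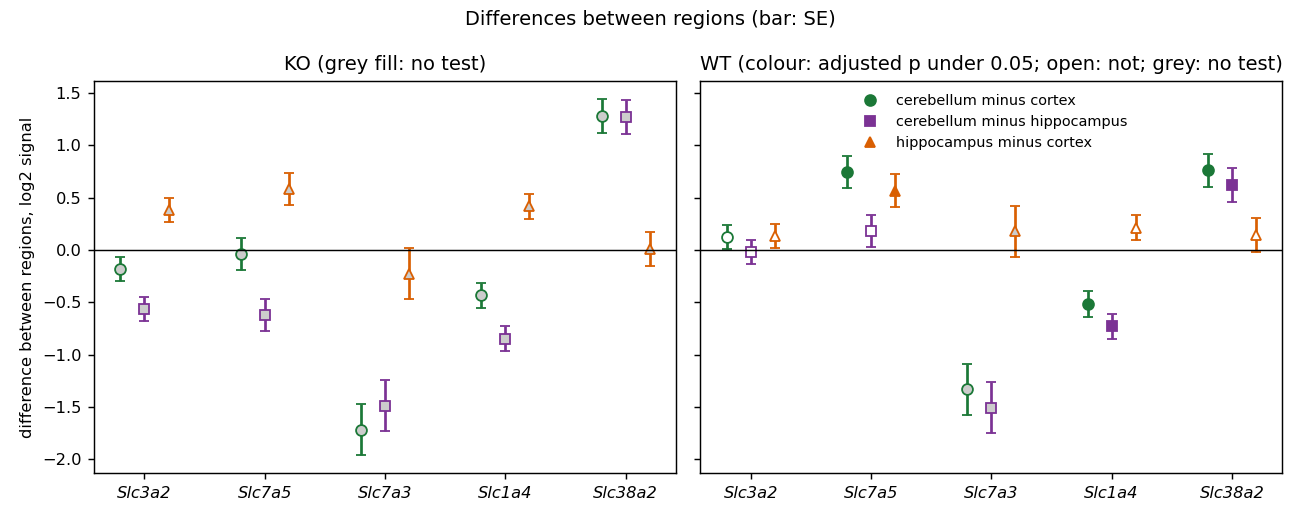
Differences between regions on the log2 scale for each gene, in KO (left, grey fill, not tested) and in WT (right, filled in colour where limma's adjusted p was under 0.05, open where not, grey for the untested Slc7a3), with the SE as a bar (n = 3 animals per region and genotype). In WT, Slc7a3 and Slc1a4 lie below 0 and Slc38a2 above 0 wherever cerebellum is compared.

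None of the other plasma membrane amino acid transporters kept passed the test between KO and WT. Of 46 listed, 19 had a probe set and 14 were kept, and in each of the 3 regions 0 of the 14 were called in either direction by limma. Of all kept probe sets, 0.0358% were called higher and 0.0835% lower in hippocampus, 0% and 0.0358% in cerebellum, and 0.0597% and 0.227% in cortex. With shares this small, 0 of 14 is not a result about these genes. At an unadjusted p under 0.05, 1 of the 14 passed in hippocampus, 1 in cerebellum and 0 in cortex, beside 8.41%, 12.1% and 10.2% of all. Their median log2 difference was 0.01 in hippocampus, -0.09 in cerebellum and 0.02 in cortex. In hippocampus the lowest p belonged to Slc7a9, a light chain that pairs with Slc3a1, at 46.0 ± 10.1 in KO and 23.8 ± 16.1 in WT (SD, n = 3; limma adjusted p = 0.594), and to Slc1a1, a glutamate transporter, at 205 to 218 and 235 to 257 (limma adjusted p = 0.664). In cerebellum Slc6a9, the glycine transporter GlyT1, read 437 ± 31.7 in KO and 566 ± 40.8 in WT without overlap (limma adjusted p = 0.239). In cortex Slc7a2, another carrier of cationic amino acids, read 36.8 to 72.9 in KO and 18.1 to 53.2 in WT (limma adjusted p = 0.496), and Slc6a15, a neutral amino acid transporter, 384 ± 47.7 and 319 ± 36.0 (limma adjusted p = 0.530).

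The other light chains that can pair with Slc3a2 were mostly too dim to pass the filter. Of 5 listed, 4 had a probe set and 1 was kept, Slc7a8, which encodes LAT2. It read 62.7 ± 1.03 in KO and 65.4 ± 0.790 in WT hippocampus, 30.4 ± 2.64 and 38.8 ± 8.13 in cerebellum, and 55.7 ± 5.90 and 62.9 ± 18.4 in cortex, with log2 differences of -0.06 ± 0.21, -0.33 ± 0.21 and -0.14 ± 0.21 and limma adjusted p of 0.956, 0.562 and 0.879. Slc7a11, the cystine and glutamate exchanger xCT, did not pass the filter and was singled out after its values were seen. In hippocampus it read 36.7, 24.1 and 38.4 in KO, against 8.66, 8.43 and 15.2 in WT, with 2 of the WT arrays under the floor. No difference is given for it there, and nothing is read from its call in the alternative with no filter. In cortex it read 25.0, 25.0 and 16.5 in KO, against 16.4, 13.6 and 22.7 in WT, which overlap.

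Other genes of the amino acid response were counted from a list of 39, of which 31 had a probe set and 29 were kept. In KO hippocampus 2 of the 29 rose and 27 did not pass, with 24 above 0, 12 at an unadjusted p under 0.05 and a median log2 difference of 0.20. In KO cortex 1 rose and 28 did not pass, with 18 above 0, 8 at an unadjusted p under 0.05 and a median of 0.11. The unadjusted counts take either direction, and in both regions they include Ddit4, whose KO arrays all lay below the WT arrays. Its log2 differences were -0.45 in hippocampus and -0.49 in cortex (limma adjusted p = 0.450 and 0.255). In KO cerebellum 0 passed in either direction, with 21 above 0, 5 at an unadjusted p under 0.05 and a median of 0.15. Of all kept probe sets, 54.5% lay above 0 in hippocampus, 50.4% in cortex and 55.5% in cerebellum, and 8.41%, 10.2% and 12.1% had an unadjusted p under 0.05. Those that rose were Atf5, a transcription factor of this response (302 ± 113 in KO and 54.9 ± 7.09 in WT hippocampus, and 165 ± 52.6 and 39.6 ± 5.24 in cortex), and Nupr1, a stress-induced nuclear protein, in hippocampus (244 ± 39.3 and 30.7 ± 20.6). Their limma adjusted p were 0.000953 and 0.00236 for Atf5 and 0.00165 for Nupr1. The list was chosen with earlier results of these data known, so its counts and p-values are a description and not a separate test. In cerebellum, Mthfd2, a mitochondrial folate enzyme, read 264 ± 54.5 in KO and 165 ± 9.44 in WT, and Atf5 67.3 to 137 and 40.9 to 61.5, neither of which passed (both limma adjusted p = 0.174). On the region's own 6 arrays, 0 of the 29 passed in hippocampus and 0 in cortex (limma adjusted p = 0.137 and 0.0915 for Atf5 and 0.263 for Nupr1).

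**Figure D4:**
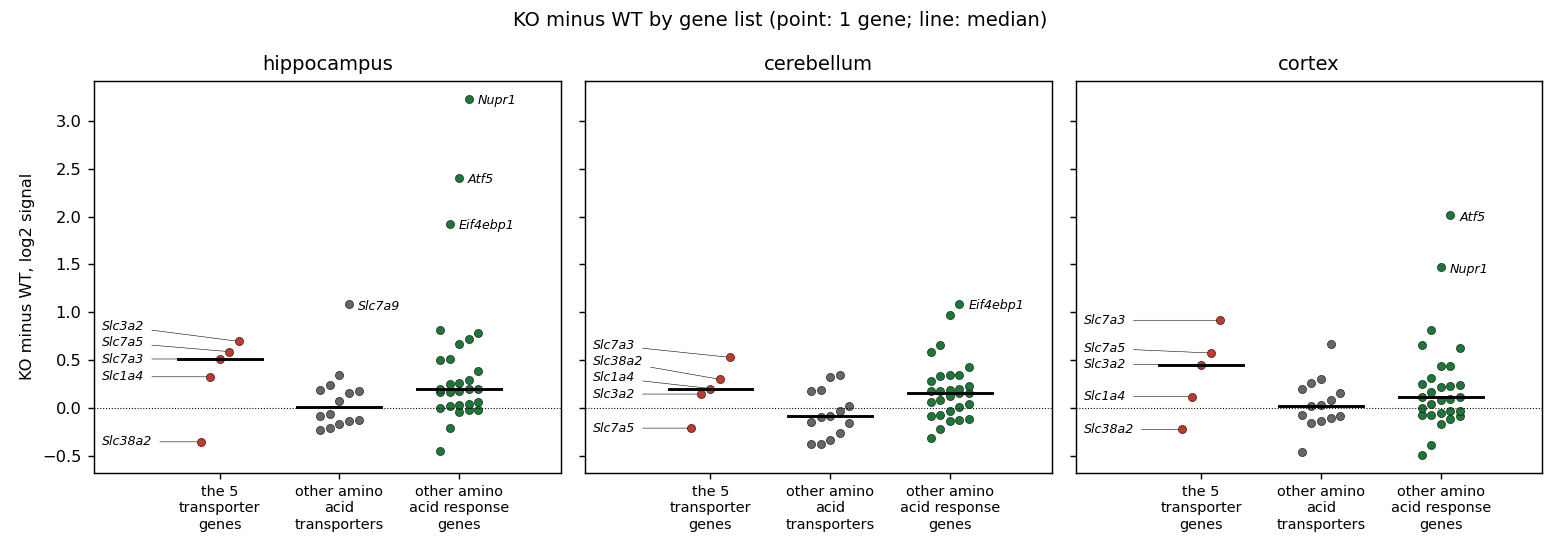
KO minus WT on the log2 scale in each region for the 5 transporter genes, 14 other amino acid transporters and 29 other amino acid response genes, with 1 point per gene and the median as a line. The medians of the 5 genes are 0.51, 0.20 and 0.45 in hippocampus, cerebellum and cortex, and those of the other transporters -0.09 to 0.02. The 5 genes were picked on this contrast, so nothing is read from the gap between the lists.

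Likeness was measured as Pearson's r over the 18 arrays, after the mean of each region was taken from the log2 values, among 7553 other probe sets with 1 gene symbol. The arrays share 6 animals and 2 genotypes, so r is a description. KO minus WT stays in these values and enters r, so a likeness in KO minus WT is no separate result. The gene most like Slc3a2 was Atf5 (r = 0.894), followed by Hmox1, a haem oxygenase induced by oxidative stress (r = 0.858), and S100a6, a calcium-binding protein (r = 0.823). Slc7a5 stood at rank 7 (r = 0.807) and Slc7a3 at rank 9 (r = 0.802). Of the probe sets most like Slc3a2, that of Atf5 had log2 differences of 2.41, 0.98 and 2.01 in hippocampus, cerebellum and cortex.

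Slc7a5 was most like Gfap, the intermediate filament of astrocytes, on 2 probe sets (r = 0.907 and 0.903), and then Gusb, a lysosomal enzyme (r = 0.875). The first Gfap probe set had log2 differences of 0.99 in hippocampus, -0.33 in cerebellum and 0.68 in cortex. It was picked by r, so nothing is read from signs shared with Slc7a5. Slc7a3 was most like Slc3a2 (r = 0.802), Atf5 (r = 0.80) and Slc22a2, an organic cation transporter (r = 0.792). Slc1a4 was most like the stress-induced factor Atf3 (r = 0.807), the microglial factor Irf8 (r = 0.795) and the glycosyltransferase Pomgnt1 (r = 0.777). Slc38a2 was most like Glud1, glutamate dehydrogenase (r = 0.876), Scg3, a secretory granule protein (r = 0.856), and Fhod3, an actin regulator (r = 0.845), and it ran against Slc3a2 (r = -0.453) and Slc7a5 (r = -0.577).

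Cell type markers moved with these differences in part, and in tissue a change in the number of cells of a type and in RNA per cell cannot be told apart. The summed signal of 13 kept endothelium markers was 1379 to 1723 in KO and 1677 to 1728 in WT hippocampus, with 10 of 13 below 0, and 1322 to 1341 in KO and 1216 to 1559 in WT cortex, with 10 of 13 below 0. The 6 kept microglia markers were all above 0 in hippocampus, with sums of 1429 to 1775 in KO and 1320 to 1368 in WT, and all above 0 in cortex, with 1211 to 1725 in KO and 1246 to 1325 in WT. Of all kept probe sets, 54.5% and 50.4% lay above 0 in hippocampus and cortex. Limma called 0 of the 6 in either region, and Csf1r in hippocampus and Cx3cr1 in cortex were at only 0.002 and 0.001. The 6 kept oligodendrocyte markers were all below 0 in both regions, where 2 and 5 of them fell by limma's test, with sums of 3911 to 5006 in KO and 5810 to 8787 in WT hippocampus and of 3320 to 4194 in KO and 6280 to 8082 in WT cortex. The 6 kept astrocyte markers had 3 above 0 in each region, with sums of 3180 to 3864 in KO and 3424 to 3798 in WT hippocampus, 4227 to 4571 and 4277 to 4609 in cerebellum, and 2924 to 3757 and 2899 to 3323 in cortex. A sum follows its brightest genes and can hide single markers. Gfap read 395 to 785 in KO and 199 to 366 in WT hippocampus (limma adjusted p = 0.293). S100b had a log2 difference of -0.54 in cortex (limma adjusted p = 0.280). The 7 kept neuron markers had 3 above 0 in hippocampus (sums of 9791 to 10709 in KO and 9777 to 10935 in WT), 0 in cerebellum (7117 to 7993 and 8119 to 9295) and 2 in cortex (10731 to 11139 and 11311 to 12535). Choroid plexus markers, 4 kept, varied between animals, with sums of 534 to 2223 in KO and 1418 to 2250 in WT hippocampus, 357 to 1512 and 57.6 to 1298 in cerebellum, and 120 to 625 and 270 to 809 in cortex. They had 0 above 0 in hippocampus, 4 in cerebellum and 2 in cortex. Their median log2 difference in cerebellum was 1.74, where KO and WT overlapped for each marker and limma called 0 of the 4. In cerebellum the sums were 1680 to 2020 in KO and 1780 to 1888 in WT for endothelium, 731 to 750 and 634 to 868 for microglia, and 7185 to 7891 and 7749 to 8897 for oligodendrocytes. Of the kept markers of these 6 cell types, 1 averaged under the floor in a group, the endothelial junction gene Ocln, at 4.14 to 11.7 in KO and 11.1 to 26.6 in WT hippocampus. RNA integrity can be read from the Gapdh 3' over 5' signal, which was 0.804 ± 0.00773 on the KO and 0.903 ± 0.0202 on the WT cortex arrays, 0.844 ± 0.0547 and 0.841 ± 0.0429 on those of hippocampus, and 0.821 ± 0.0245 and 0.796 ± 0.00677 on those of cerebellum. The same ratio of actin was 1.77 ± 0.124 on the KO and 1.77 ± 0.140 on the WT cortex arrays, 1.33 ± 0.0665 and 1.30 ± 0.190 in hippocampus, and 1.36 ± 0.0259 and 1.28 ± 0.0951 in cerebellum. The part of cell types and of RNA integrity in the differences of the 5 genes was not tested.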

How the data were processed

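Signal of 18 Affymetrix arrays was analysed from 1 table of probe set intensity on a linear scale, which the authors deposited already scaled: the 2% trimmed mean was 150.07 to 150.08 on every array. For the software that made the values, the name is not given in the sources used, and the number of arrays limits the precision. Of 12488 probe sets, 66 controls were left out. Signals under the 20th percentile of all values, 9.46, were set to that value before log2, and the 8382 probe sets that exceeded the 40th percentile of the array on 3 or more arrays were kept. In the annotation 10855 probe sets had 1 symbol, 396 had several and 1237 had none. Slc3a2, Slc1a4 and Slc38a2 were found in the RefSeq promoter table, and Slc7a5 and Slc7a3 were not used there.

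Groups were compared with limma 3.58.1 (R 4.3.3), with 6 group means fitted to the 18 arrays (12 residual degrees of freedom), an intensity trend, and Benjamini-Hochberg adjustment over all kept probe sets at 0.05, two-sided. For the mean over the regions each animal gave 1 value, which leaves 4 residual degrees of freedom. With 3 animals a group, an exact permutation test of 1 value cannot reach the threshold. The fits were tested on simulated data. Replicates are separate animals by their numbers in the labels, and the arrays of 1 animal are paired across regions. Their deviations from the group means correlated with a median r of 0.135, against -0.0634 between animals of 1 genotype in different regions.

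The 5 genes and the gene lists were chosen with earlier results of these data known. KO region differences, and those of Slc7a3 in WT, were to be tested as well. They are given without a test, because the KO arrays served to choose the genes and because Slc7a3 passed the filter only through arrays of hippocampus and cortex. Named genes are every kept probe set of the 5 genes, for each list and region up to 4 genes that passed (where none did, the 2 with the lowest p), and the 3 probe sets most like each gene. A gene with several probe sets is represented in a list by the brightest. Alternatives changed the scaling (quantile or median), the floor (left out, or 16 added to each signal), the filter (none, or the 60th percentile), the trend (off) and the arrays fitted (1 animal left out, or only those of the region), or took the animal as a replicate block.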

Additional observations from a re-analysis of the deposited data

Results flagged for a closer look

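KO minus WT of Slc7a5 and of Slc38a2 had one sign in cerebellum and the other sign in hippocampus and cortex. The KO and WT arrays overlapped in cerebellum for both genes, and in cortex for Slc38a2. For Slc7a5 every KO array of hippocampus and of cortex lay above the WT mean of its region, and every KO array of cerebellum lay below it. KO minus WT in cerebellum was smaller than in cortex by a log2 difference of -0.79 ± 0.22 (SE, limma), and smaller than in hippocampus by -0.80 ± 0.22. For Slc38a2 every KO array of hippocampus and cortex lay below the WT mean and every KO array of cerebellum above it. Its KO minus WT in cerebellum exceeded that in cortex by 0.52 ± 0.23 and that in hippocampus by 0.65 ± 0.23. Without WT animal 3396 the Slc38a2 value against cortex was 0.30, and without 3405 it was 0.80. These differences between regions were not tested, since the genes were chosen on KO minus WT.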

How the results depend on the processing

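Of 222 values of KO minus WT of the 5 genes in a region under the alternatives, 1 changed sign. It was Slc1a4 in cortex without animal 3389. Many of the 222 could not change, so their number does not measure how stable the signs are. Leaving out the floor, changing the filter or switching off the trend left each difference of a kept gene as it was. Only the other alternatives, such as scaling or leaving out an animal, could move a sign. Slc7a3 did not pass the 60th percentile filter. With 1 animal left out the median of the 5 genes ran from 0.34 to 0.63 in hippocampus, 0.17 to 0.24 in cerebellum and 0.41 to 0.51 in cortex. The number of the 5 genes called in hippocampus, 1, was 0 after median scaling, 0 with no intensity trend, 0 on the region's own 6 arrays, and 0 to 2 with 1 animal left out. In WT, hippocampus minus cortex called 0 of the 5 with no filter, against 1, and 0 to 1 with 1 animal left out. With no filter Slc7a11 was the 1 light chain and the 1 other transporter called higher in hippocampus. Nothing is read from that call, because 2 of its 3 WT arrays were under the floor and it was singled out after its values were seen. Response genes called in cortex numbered 1 to 2 with 1 animal left out and 0 on the region's own 6 arrays, and in hippocampus 0 on its own 6 arrays. Over all probe sets, the 3 calls in cerebellum became 15 after median scaling, 5 with no filter, 9 with the 60th percentile filter, 1 with no intensity trend, 0 on its own 6 arrays and 0 to 132 with 1 animal left out. The 10 calls in hippocampus became 1 on its own 6 arrays and 3 to 22 with 1 animal left out, and after median scaling 2 were higher and 12 lower, against 3 and 7. The 24 calls in cortex became 3 on its own 6 arrays and 6 to 31, and the 1050 of hippocampus minus cortex in WT became 465 to 984. Calls higher were 20.8% of those in cortex and 44.4% with no filter. In WT, cerebellum minus hippocampus of Slc3a2 was 0.10 after median scaling and -0.0452 to 0.0166 (without 3405) with 1 animal left out. Hippocampus minus cortex in WT ran from -0.16 (without 3405) to 0.37 for Slc38a2 and from -0.0181 (without 3396) to 0.29 for Slc7a3. Slc7a8 in cortex ran from -0.33 to 0.0799 (without 3406). None of these had passed. The median of all probe sets moved by under 0.1 in KO minus WT under either scaling. The cause was not tested. With the animal as a replicate block, calls were 11, 3 and 25 in hippocampus, cerebellum and cortex, and no call of the 5 genes changed. Dim signal limits Slc7a3 and the unkept probe sets.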
